A study of Mus musculus with 14 samples.

Results

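Induced loss of JunB was examined in CD25- regulatory T cells (Tregs) of the Peyer's patches (PP) 7 days after the first dose of tamoxifen. The 2 iKO libraries were set against the 2 iHET libraries, 4 of the 14 RNA-seq libraries of the series. The samples were chosen by their labels alone: iKO mice were JunB F/F and iHET mice JunB F/+, and both carried Foxp3-EGFP-cre-ERT2, which makes the recombinase under the Foxp3 promoter, and a Rosa26-STOP-tdTomato reporter that marks cells in which it was active. The mice of all 4 libraries received 8 mg of tamoxifen by gavage on days 0, 1 and 3 and were taken on day 7. The study's methods give an age of 10 to 12 weeks when tamoxifen was given. The sorted cells were TCRb+ CD4+ Foxp3+ tdTomato+ and CD25-. The controls therefore also had the recombinase, the reporter, tamoxifen and 1 floxed Junb allele that could be deleted. iHET1 and iKO1 were male and carried 1 copy of the cre-ERT2 allele, and iHET2 and iKO2 were female and carried 2, so that sex and allele number cannot be told apart. Nothing in the labels says that each library is 1 mouse or a pool.

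JunB is a basic leucine zipper transcription factor of the AP-1 family. It binds DNA as a dimer with partners such as BATF or the Fos proteins, and in T cells AP-1 dimers with BATF act together with IRF4. Tregs express Foxp3 and restrain immune responses, and most carry CD25, the alpha chain of the IL-2 receptor (gene Il2ra). In PP, where germinal centres are always active, many Tregs lack CD25, and these include T follicular regulatory (Tfr) cells, which express Bcl6, Cxcr5 and Pdcd1 and limit the germinal centre reaction. PP lie in the wall of the small intestine under an epithelium of absorptive enterocytes, whose transcripts for digestive enzymes, sugar and peptide carriers and lipid-handling proteins are among the most abundant in the mucosa.

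The 4 libraries held between 26274861 and 31740992 counts, so that 3 counts, the floor used for a gene without reads, lay between 0.0945 and 0.114 CPM, counts scaled to a common library size. Between 35281 and 36131 genes had a count in iHET and between 29774 and 32408 in iKO. The labels were checked on levels corrected for transcript length (TPM). Cd4 lay between 757 and 835 TPM, Cd3e between 825 and 941 TPM and Foxp3 between 44.7 and 62.8 TPM in all 4 libraries. Il2ra lay between 106 and 141 TPM, below the 301 to 402 TPM of the 6 colonic Treg libraries of the same mouse line, which were not sorted on CD25. The Tfr markers Cxcr5 (132 to 175 TPM) and Sostdc1 (285 to 344 TPM) were above the colonic range of 15.6 to 62.0 TPM and 0 to 9.34 TPM. Epithelial transcripts were present, some at levels like that of Foxp3 or above it and others below it. Epcam, an epithelial adhesion molecule, was at 70.0 and 58.4 TPM in iHET and 51.2 and 50.5 TPM in iKO. Foxp3 was at 56.0 and 44.7 TPM and at 62.8 and 53.7 TPM in the same libraries. The enterocyte genes Apoa1 (211 and 219 TPM) and Fabp2 (174 and 136 TPM) were higher still in iHET. In iKO they were at 7.92 and 49.3 TPM and at 15.3 and 34.4 TPM, below Foxp3. Vil1 of the brush border lay below Foxp3 in each library, at 8.33 to 28.9 TPM. Krt8 was at 13.4 to 83.2 TPM and Muc2 of goblet cells at 0.166 to 5.27 TPM. Markers of other cell types ranged widely. The macrophage receptor Csf1r was at 1.43 to 4.68 TPM, and Ncr1 of natural killer cells at 0 to 0.616 TPM. The B cell genes Ms4a1 and Cd79a were at 21.0 to 25.6 TPM and 8.39 to 15.5 TPM, and Jchain of plasma cells at 6.07 to 27.6 TPM. Of the CD8 chains, Cd8a was at 1.96 to 21.3 TPM and Cd8b1 at 16.8 to 41.8 TPM. The highest Cd8b1 level was in iHET2, near that of Foxp3 there.

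Junb is on chromosome 8 (chr8:84974484-84978718, GRCm38). Its TMM-normalised level was 5872 and 4438 CPM in iHET1 and iHET2 and 941 and 960 CPM in iKO1 and iKO2. The groups did not overlap, and the iKO libraries matched each other closely. The log2 fold change was -2.44 ± 0.16 (SE of the fitted coefficient, n = 2 per group), with an FDR of 7.66e-20 by edgeR's exact test, the test the study used for these libraries, and of 0.0940 by its quasi-likelihood test (both adjusted by Benjamini and Hochberg's method). Within the male and the female pair the log2 difference was -2.64 and -2.21. The counts do not separate the floxed allele from other reads of the gene, and 173 exon bases of Junb are shared with the neighbouring Prdx2, which unstranded counting leaves unassigned.

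Few genes passed a test. The filter of 1 CPM in 2 or more libraries left 17079 genes. The quasi-likelihood test called 0 of them at an FDR of 0.05, with 618 (3.62%) at an unadjusted p under 0.05, split into 294 higher (1.72%) and 324 lower (1.9%) in iKO. The exact test called 43 genes (0.252% of those tested), 38 of them lower in iKO (0.222%) and 5 higher (0.0293%), and DESeq2 called 35 (0.205%), of which 33 were shared with the exact test. The named calls that DESeq2 did not make were Pigr (FDR 0.660), Slc5a1 (0.783), Gm5541 (0.571), Trim30b (0.0993), Pdzk1 (0.197), Slc7a7 (0.0667), Hsd17b6 (0.0667), Map3k19 (0.139), Gm16564 (0.563) and Mlip (0.425). Of all genes tested, 5503 (32.2%) did not overlap between the groups, and the median log2 fold change was -0.00. In what follows, "fell" and "rose" refer to the exact test at an FDR of 0.05, fold changes and SE are those of the quasi-likelihood fit, and no gene named passed the quasi-likelihood test. The number of calls depended on single libraries: the exact test called 178 genes without iHET1 (148 higher and 30 lower), 127 without iKO1, 95 without iKO2 and 44 without iHET2. Of the 43 calls, 15 were made again whichever library was left out, among them Junb, Clca4b, G6pc, Slc2a2, Fabp2, Rep15, Pls1, Cgref1, Jchain, Maoa, Apob, Ckmt1, Trim30b and Slc5a1.

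Apart from Junb, 37 genes fell, at low levels, and 9 of them were in the epithelial lists. These 4 lists hold 17, 28, 9 and 2 of the 17079 genes tested. They leave out genes such as Pigr, Pls1 and Btnl1, so 9 is not a count of the epithelial genes among the 37. These 37 genes had a mean of 1.19 to 72.6 CPM in iHET with a median of 6.28 CPM, and 18 of them were under 1 CPM in iKO. Their median log2 fold change was -2.85, also with the 2 genes without counts in iKO placed at their bound, and all 37 were lower in both the male and the female pair, with medians of -3.18 and -2.36. Since they were chosen by these same libraries, these counts describe them and test nothing. The plot of the called genes by library shows them in groups by role, which were assigned after the values were seen.

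**Figure D1:**
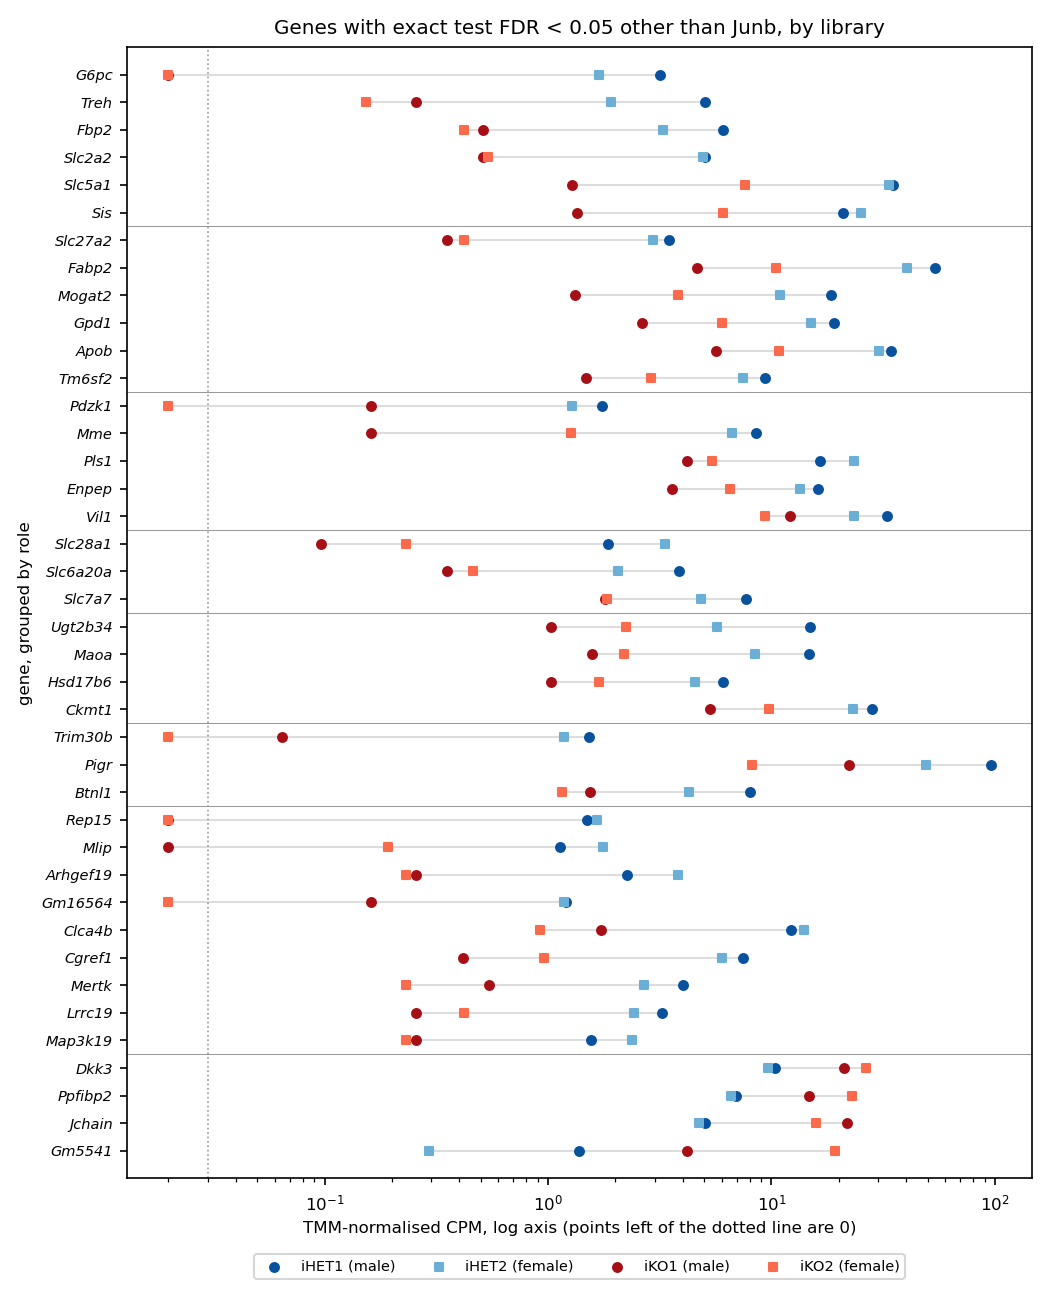
Level of the genes called by the exact test other than Junb and those not reported, in TMM-normalised CPM on a log axis, with 1 point per library (blue for iHET, red for iKO, circles male, squares female) and horizontal lines between role groups in the order of the text. The genes that fell have both blue points to the right of both red points, and those at the bottom that rose have the reverse order.

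The genes that digest, carry or convert sugars were 7 of those that fell, and all were lower in each iKO library than in either iHET library. Slc5a1, the sodium-glucose cotransporter of the brush border, was at 34.9 and 33.4 CPM in iHET and 1.28 and 7.64 CPM in iKO (log2 fold change -2.94 ± 0.67, FDR 0.0466). Slc2a2, the glucose carrier GLUT2, was at 5.02 and 4.96 CPM in iHET and 0.514 and 0.537 CPM in iKO (-3.16 ± 0.39, FDR 2.85e-06). The libraries of each group were close to each other for this gene. G6pc, the catalytic subunit of glucose-6-phosphatase, was at 3.17 and 1.69 CPM in iHET and had no count in either iKO library, at least 21.2-fold lower against a floor of 3 counts per library. The disaccharidases Sis (20.9 and 25.1 CPM in iHET, 1.35 and 6.10 CPM in iKO) and Treh (5.02 and 1.91 CPM, 0.257 and 0.153 CPM) fell as well. Fbp2, a fructose-1,6-bisphosphatase, was at 6.04 and 3.27 CPM in iHET and 0.514 and 0.422 CPM in iKO.

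Among the genes that fell, 6 belong to fat absorption and lipid metabolism, with log2 fold changes from -2.94 to -1.93. Fabp2, the intestinal fatty acid binding protein, was at 54.1 and 40.6 CPM in iHET and 4.66 and 10.5 CPM in iKO (-2.65 ± 0.37, FDR 3.73e-06). Apob, the protein backbone of chylomicrons, was at 34.3 and 30.2 CPM in iHET and 5.62 and 10.8 CPM in iKO (-1.97 ± 0.31, FDR 0.000186). Mogat2, which re-esterifies absorbed monoacylglycerol, was at 18.5 and 10.9 CPM in iHET and 1.32 and 3.84 CPM in iKO. For each of these 3 genes the fall was larger in the male than in the female pair, as it was for 27 of the 37 genes. Gpd1, the cytosolic glycerol-3-phosphate dehydrogenase, Tm6sf2, which takes part in lipoprotein lipidation, and Slc27a2, an acyl-CoA synthetase of very long chain fatty acids, made up the rest; Gpd1 and Slc27a2 share exon bases with overlapping genes, so part of their reads is uncertain.

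The brush border was represented by 5 genes that fell. Pls1, an actin bundler of microvilli, was at 16.6 and 23.5 CPM in iHET and 4.21 and 5.41 CPM in iKO (-2.05 ± 0.26, FDR 5.56e-06). Vil1, villin, was at 33.0 and 23.5 CPM in iHET and 12.1 and 9.32 CPM in iKO (-1.40 ± 0.24, FDR 0.00484), the smallest fall among the 37. The peptidases Mme and Enpep and the scaffold Pdzk1 were also lower, and Pdzk1 shares 1482 exon bases with its neighbours. Of the carriers of amino acids and nucleosides, Slc6a20a, Slc7a7 and Slc28a1 fell. Slc6a20a shares 585 exon bases with genes that include Ccr9, a homing receptor that Tregs express.

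Of the remaining genes that fell, Pigr, which carries IgA across the epithelium, had the highest level: 96.0 and 49.2 CPM in iHET and 22.2 and 8.21 CPM in iKO (-2.25 ± 0.50, FDR 0.0211). Maoa, monoamine oxidase A, was at 14.7 and 8.41 CPM in iHET and 1.57 and 2.19 CPM in iKO, and Ckmt1, a mitochondrial creatine kinase, at 28.3 and 23.2 CPM and at 5.30 and 9.75 CPM. Btnl1 is a butyrophilin-like protein by which enterocytes sustain intraepithelial gamma delta T cells, and it was at 8.01 and 4.26 CPM in iHET and 1.54 and 1.15 CPM in iKO. After Junb, Clca4b had the lowest p: it was at 12.3 and 14.1 CPM in iHET and 1.73 and 0.921 CPM in iKO (-3.27 ± 0.35, FDR 1.22e-09). Clca4b has a close paralogue, Clca4a, as Ugt2b34 has among the glucuronosyltransferases, so that reads could be split or lost between copies. Rep15 had no count in iKO and was at 1.49 and 1.65 CPM in iHET, at least 13.7-fold lower. Mertk, a receptor tyrosine kinase that clears apoptotic cells, was at 4.00 and 2.68 CPM in iHET and 0.546 and 0.230 CPM in iKO.

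Epithelial markers were measured beside these genes, for the 4 epithelial lists as a whole. Of 28 enterocyte genes tested, 25 were lower in iKO at a median log2 fold change of -1.62, where 50.4% of all genes tested were lower. By the exact test 8 fell, against 0.222% of all genes. A gene can pass the filter through the iHET libraries alone, and the lists were chosen with earlier results of these data known. Such counts describe the lists and test nothing. With 1 library left out the median ran from -3.02 (without iKO2) to -1.06 (without iKO1). The summed level of the list was 1273 and 710 CPM in iHET1 and iHET2 and 456 and 619 CPM in iKO1 and iKO2. Dgat1 and Mep1a, at 363 and 103 CPM and 65.5 and 56.9 CPM in iHET and 237 and 262 CPM and 60.1 and 57.5 CPM in iKO, belong to that list and overlapped between the groups. Of 17 general epithelial genes, 15 were lower with a median of -0.39, and Vil1 alone fell; their sums were 416 and 182 CPM in iHET and 266 and 192 CPM in iKO and overlapped. Without iHET1 the median of this list was 0.54 and without iHET2 it was -1.08, so its sign rested on which control was used.

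Single markers differed in how they varied among the libraries. Krt8 was at 52.4 and 8.15 CPM in iHET and 40.1 and 15.1 CPM in iKO. Epcam was at 49.4 and 39.7 CPM in iHET and 35.4 and 34.9 CPM in iKO (-0.34 ± 0.17, quasi-likelihood FDR 0.999), without overlap. From iHET1 to iHET2 the enterocyte genes differed unevenly: Slc5a1 and Apoa1 were at close levels, while Mttp (110 and 35.5 CPM), Dgat1, Pigr and Treh were lower in iHET2. Apoa1, the main apolipoprotein of small intestinal and liver lipoproteins, was at 83.9 and 83.8 CPM in iHET and 3.08 and 19.2 CPM in iKO, and with an exact test FDR of 0.0602 it was among the 10 genes nearest outside the threshold. Goblet cell transcripts stood out in 1 library: Fcgbp was at 163 CPM in iHET1 and at 1.73, 1.83 and 0.230 CPM in the others, and Tff3 at 26.3 CPM and at 0.0367, 1.06 and 0 CPM. Of the 19 secretory genes 10 did not pass the filter, and of the 6 of the follicle-associated epithelium 4 did not. The part of epithelial transcripts in the genes that fell was not tested, and in sorted bulk samples fewer cells of a type and less RNA per cell cannot be told apart.

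**Figure D2:**
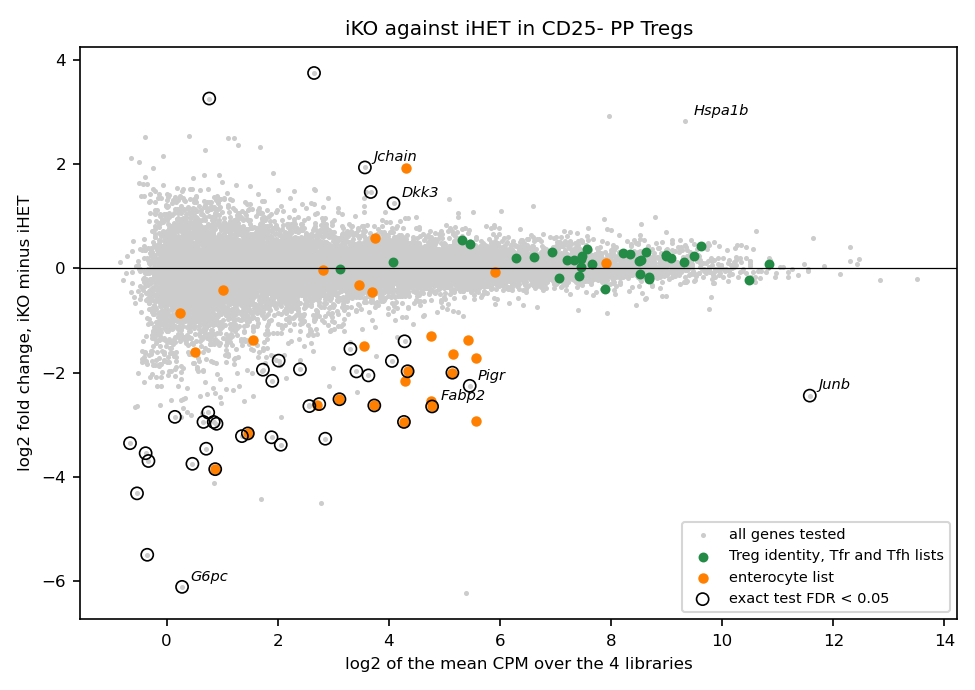
Each of the 17079 genes tested by its mean level (log2 of the mean CPM over the 4 libraries) and its log2 fold change, iKO minus iHET, with the enterocyte list in orange, the Treg identity and Tfr and Tfh lists in green, and exact test calls circled. The called genes other than Junb lie at mean levels well below Junb, and the green points lie within 0.6 of 0.

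By the exact test 5 genes rose. Jchain, which joins IgA and IgM monomers and is made by plasma cells, was at 5.06 and 4.74 CPM in iHET and 21.9 and 15.8 CPM in iKO (1.94 ± 0.24, FDR 6.46e-06). Another plasma cell transcript, Igkc, was at 48.7 and 67.8 CPM in iHET and 179 and 89.2 CPM in iKO without passing the test, while Igha was at 55.1 and 30.9 CPM in iHET and 119 and 0.921 CPM in iKO, and the plasma cell genes Mzb1 and Tnfrsf17 did not pass the filter. The summed level of the plasma cell list was 1230.5 and 1254 CPM in iHET and 1559 and 1403 CPM in iKO, and the part of such transcripts in the rise of Jchain was not tested. Dkk3, a secreted Dickkopf family protein, was at 10.4 and 9.65 CPM in iHET and 21.2 and 26.6 CPM in iKO (1.25 ± 0.20, FDR 0.00516). Ppfibp2, a liprin, rose from 6.91 and 6.61 CPM to 14.7 and 22.9 CPM, and the pseudogene Gm5541 from 1.38 and 0.294 CPM to 4.17 and 19.3 CPM. Of these 5 calls only that of Jchain was kept whichever library was left out.

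The promoters of the genes that fell were searched for AP-1 motifs and for motifs of the hepatocyte nuclear factors, which act in enterocytes. The RefSeq promoters used (GRCm38.p6, 250 bases before to 50 after each start) covered 33 of the 43 called genes, and 30 of the 37 that fell through 41 promoters. TGANTCA, a loose form of the AP-1 heptamer, was found on either strand in 6 of the 41 (14.6%). It was in 7.81% of all 32851 promoters and 5.62% of those of genes tested. The usual heptamer has C or G in the middle, and this form admits any base. The matches belonged to Arhgef19 (TGAATCA) and to Cgref1, Fbp2 and Mme (TGAGTCA). The matching promoters of Cgref1 overlap and hold the same site, as do those of Mme, so matches outnumber sites. TGACGTCA, the octamer shared by AP-1 and CREB, was in 0 of the 41, against 1.79% of all. The palindrome of HNF1 was in 0 as well and in 0.00913% of all, and CAAAGTCCA, an HNF4 motif, in 2 (4.88%), of Pdzk1 and Treh, against 0.475%. The letters of TGACGTCA hold no TGANTCA, so these counts are separate. The 250 bases before the start of the 3 genes with a match upstream within the last 100 bases are given because they are where the searched motifs fall in genes that fell; capitals mark the match. Those of Arhgef19 (chr4:141244838-141245087, plus strand) and Fbp2 (chr13:62858401-62858650, minus strand) hold a TGANTCA match at position -47 from the start. It reads TGAATCA in Arhgef19 and TGAGTCA in Fbp2. Those of Treh (chr9:44672983-44673232, plus strand) hold the HNF4 motif at position -71.
Arhgef19: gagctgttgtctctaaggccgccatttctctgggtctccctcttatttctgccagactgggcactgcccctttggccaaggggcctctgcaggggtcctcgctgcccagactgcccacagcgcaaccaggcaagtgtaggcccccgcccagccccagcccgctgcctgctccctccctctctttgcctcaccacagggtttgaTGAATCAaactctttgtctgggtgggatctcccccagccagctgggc
Fbp2: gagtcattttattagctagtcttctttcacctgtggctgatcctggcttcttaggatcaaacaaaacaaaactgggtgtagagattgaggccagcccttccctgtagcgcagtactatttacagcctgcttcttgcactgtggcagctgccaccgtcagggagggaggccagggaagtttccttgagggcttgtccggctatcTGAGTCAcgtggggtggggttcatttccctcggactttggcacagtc
Treh: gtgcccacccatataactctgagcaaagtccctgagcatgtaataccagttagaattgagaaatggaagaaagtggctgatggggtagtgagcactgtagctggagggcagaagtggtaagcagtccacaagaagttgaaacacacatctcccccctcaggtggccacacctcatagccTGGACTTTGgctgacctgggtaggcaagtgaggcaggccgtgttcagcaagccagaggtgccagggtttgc
A match is a string of letters and says nothing of binding in these cells.

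Genes of Tfr and T follicular helper cells differed little. Of 17 tested, 12 were higher and 5 lower at a median of 0.15 on the log2 scale, and 0 were called or had an unadjusted quasi-likelihood p under 0.05, against 3.62% of all genes. Bcl6, the factor that defines the follicular programme, was at 231 and 101 CPM in iHET and 227 and 202 CPM in iKO. Cxcr5, which guides cells into follicles, was at 170 and 136 CPM in iHET and 184 and 158 CPM in iKO (0.16 ± 0.16). Both genes overlapped between the groups. Pdcd1, the receptor PD-1, was at 782 and 558 CPM in iHET and 798 and 998 CPM in iKO (0.42 ± 0.20). Sostdc1, a secreted BMP and Wnt antagonist of Tfr cells, was at 163 and 163 CPM in iHET and 180 and 193 CPM in iKO. Tox2 was at 502 and 378 CPM and at 406 and 360 CPM.

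In PP Tregs of male Foxp3-YFP-cre mice, where the recombinase needs no tamoxifen and the gate did not require CD25- cells, the same list read differently. The paper reports promiscuous recombinase activity and germline deletion of Junb in this line. By flow cytometry it found a near-complete loss of Tfr cells in the PP of these KO mice. It also reports a major reduction of Tfr cell frequencies in the inducible line, at a later time after tamoxifen than day 7. In the Foxp3-YFP-cre libraries 13 of the 17 genes were lower in KO with a median of -0.54. By the exact test 10 fell and 1 rose there, where 3.73% of all genes fell and 1.91% rose. Sostdc1 had a log2 fold change of -4.95 there and 0.19 in the induced CD25- cells, Ascl2 of -2.97 and -0.02, and Il21 of -2.31 and 0.12. The cytotoxic granule genes showed the same difference in value: Gzma was at 178 and 132 CPM in iHET and 163 and 190 CPM in iKO (0.19 ± 0.18), and Gzmb at 169 and 124 CPM and at 146 and 168 CPM (0.10 ± 0.18), against log2 fold changes of -3.47 and -2.73 in the Foxp3-YFP-cre mice. The tables of both lines were made separately and differ in gate, time of deletion, sex and sequencer, so the difference was not tested.

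None of the genes that mark Tregs was called, where the exact test called 0.252% of all genes tested. In lists this short 0 calls is near that share and is not read as a result. Foxp3 was at 82.5 and 63.4 CPM in iHET and 90.5 and 77.5 CPM in iKO, and Ctla4, the inhibitory receptor, at 2109 and 1443 CPM and at 1912 and 1873 CPM. Of 16 Treg identity genes 13 were higher with a median of 0.21, and of 13 suppressive genes 13 were higher with a median of 0.20. In either list 0 had an unadjusted quasi-likelihood p under 0.05, against 3.62% of all genes. These medians rested on iHET2: without it they were -0.01 and 0.03. In iHET2 several activation genes were low, among them Fosl2 (548 CPM in iHET1, 74.3 CPM in iHET2, 505 and 409 CPM in iKO) and Areg, the repair factor amphiregulin (482, 102, 458 and 356 CPM in the same order). Il10, the suppressive cytokine, was at 165 and 132 CPM in iHET and 167 and 174 CPM in iKO (0.20 ± 0.15).

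Among genes of IL-2 signalling, 21 of 24 were higher in iKO with a median of 0.19, which was 0.08 without iHET2. The 3 with an unadjusted p under 0.05, where the share over all genes in that direction was 1.72%, were Pim2, a survival kinase, Bcl2l1, which encodes the anti-apoptotic BCL-XL, and Il10ra, the IL-10 receptor. Pim2 was at 70.5 and 73.1 CPM in iHET and 95.7 and 118 CPM in iKO (0.57 ± 0.15), and none of the 3 passed adjustment. Il2ra, whose protein the sort excluded, was at 195 and 221 CPM in iHET and 253 and 220 CPM in iKO and overlapped. Cish, a STAT5 target that dampens cytokine signals, was at 232 and 246 CPM in iHET and 280 and 297 CPM in iKO (0.27 ± 0.12).

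**Figure D3:**
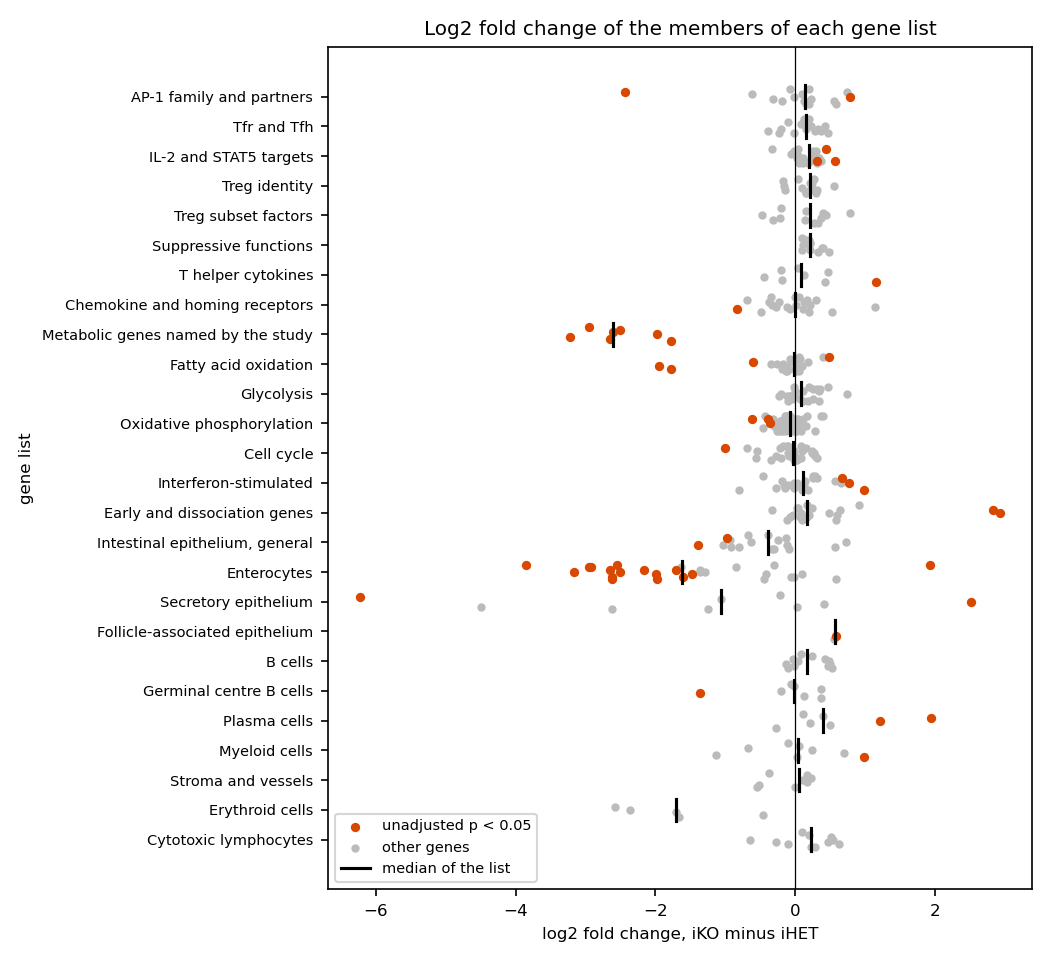
Log2 fold change, iKO minus iHET, of each member of the 26 gene lists, with 1 point per gene (orange where the unadjusted quasi-likelihood p was under 0.05) and a black bar at the list's median. The enterocyte list and the 7 metabolic genes of the study lie to the left, while the lists of Treg and follicular genes lie close to 0.

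The other AP-1 genes and partners did not follow Junb. Jund was at 922 and 734 CPM in iHET and 951 and 942 CPM in iKO, Jun at 925 and 951 CPM and at 935 and 1063 CPM, and Fos at 1803 and 2304 CPM and at 1734 and 2148 CPM. Batf, the partner of JunB in effector T cells, was at 173 and 111 CPM in iHET and 207 and 280 CPM in iKO (0.78 ± 0.25, unadjusted p 0.0186), without overlap, and was the only other gene of the 16 tested with such a p. Irf4 was at 146 and 80.5 CPM in iHET and 135 and 129 CPM in iKO.

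Of the cytokines, Ifng, which encodes interferon gamma, was at 4.19 and 6.31 CPM in iHET and 7.77 and 15.7 CPM in iKO (1.16 ± 0.40, unadjusted p 0.0270). Of 13 cytokine genes 5 did not pass the filter, Il2, Il5, Il13, Il22 and Csf2. Interferon-stimulated genes were higher in 16 of 25 with a median of 0.11, and 3 of them (Isg15, Ifit1 and Ifit3) had an unadjusted p under 0.05, against 1.72% of all genes in that direction. The sign of this median rested on iKO2, without which it was -0.24. Of the chemokine and homing receptors, Ccr2 was at 63.9 and 33.5 CPM in iHET and 24.6 and 29.9 CPM in iKO (-0.84 ± 0.31, unadjusted p 0.0340), and 20 others had a p above 0.05. Ccr1 overlapped, and Itgb7, the integrin chain that retains cells in the gut, was at 1188 and 1203 CPM and at 1009 and 1023 CPM (-0.24 ± 0.12).

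The study names 7 metabolic genes for these cells, and it chose them on these samples, so their direction is not independent evidence. Maoa, Fbp2, Mogat2, Gpd1, Ckmt1, Slc5a1 and Fabp2 all fell, with log2 fold changes from -3.22 to -1.77 and summed levels of 172 and 139 CPM in iHET and 16.9 and 40.0 CPM in iKO. Broader metabolic lists, which hold none of these 7 genes, were read beside them. The 7 genes were chosen as called in these samples, so sizes of change are not compared. The paper's gene set enrichment of these libraries found oxidative and fatty acid metabolism among the pathways underrepresented in iKO, and it was not repeated here. Of 25 genes of fatty acid oxidation 13 were lower, with a median of -0.02. Cpt2, the inner carnitine palmitoyltransferase, was at 24.7 and 29.3 CPM in iHET and 16.6 and 19.0 CPM in iKO (-0.60 ± 0.18), and Ppargc1a and Ppara, regulators of oxidative genes, were at 2.55 and 2.53 CPM and at 1.35 and 1.10 CPM in iHET and at 0.642 and 0.614 CPM and at 0.321 and 0.345 CPM in iKO. These 3 genes and Acsl1, which was higher at 27.0 and 25.3 CPM against 18.7 and 18.8 CPM, had unadjusted p values under 0.05, and Cpt1a, the entry enzyme of mitochondrial fatty acid oxidation, did not (102 and 114 CPM, 95.7 and 94.0 CPM). Glycolytic genes had a median of 0.09 with 0 of 24 under that p. Of 76 genes of oxidative phosphorylation 58 (76.3%) were lower with a median of -0.08, where 50.4% of all genes tested were lower. Among them 3 (Ndufa3, Ndufa8 and Ndufb6) had such a p, where 1.9% of all genes were lower at that p.

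Cell stress genes set 1 iKO library apart. Hspa1a and Hspa1b, which encode the inducible heat shock protein HSP70, were at 53.4 and 62.3 CPM and at 161 and 156 CPM in iHET, at 70.8 and 188 CPM in iKO1, and at 808 and 2066 CPM in iKO2. The 2 genes are near identical, so reads may be split between them. Fos, Egr1 and Dusp1, immediate early genes that also respond to tissue digestion, overlapped between the groups. Globin transcripts were highest in iHET2, with Hbb-bs at 36.2 CPM against 0.109 CPM in iHET1.

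Cells other than Tregs and epithelium were read through their own lists. Of 12 B cell genes 8 were higher, with a median of 0.16 and sums of 191 and 205 CPM in iHET and 199 and 219 CPM in iKO. The 15 myeloid genes summed to 141 and 186 CPM in iHET and 149 and 172 CPM in iKO, and 7 of them did not pass the filter. Cytotoxic lymphocyte genes summed to 527 and 442 CPM in iHET and 476 and 641 CPM in iKO. In none of these 3 lists did the exact test call a gene, where it called 0.252% of all genes tested. In lists this short that is not read as a result.

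The genes that fell were then read in the other Tregs of the series, for which the libraries are independent of the choice. In PP Tregs of Foxp3-YFP-cre mice 19 of the 37 passed the filter. A gene can pass it through the HET libraries alone, so no count over these 19 is given. The summed level of all 37 genes lay between 99.1 and 266 CPM in the HET libraries and at or below 21.7 CPM in KO. For Slc5a1 the HET libraries read 14.9 and 9.51 CPM against 0.0359 and 0.0371 CPM in KO, and Fabp2 read 20.4 and 7.28 CPM against 1.79 and 1.11 CPM. Both genes are among the metabolic genes that the study drew from calls in these libraries too. Epithelial markers moved with them there, and the sums of the general epithelial list were 221 and 174 CPM against 72.9 and 64.9 CPM. Their part in that result was not tested. Of the genes that rose, Dkk3 and Gm5541 also rose there, with log2 fold changes of 0.93 and 1.38, and Jchain (-0.29) and Ppfibp2 (-0.03) were not called.

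In colonic Tregs of the inducible line, 20 of the 37 passed the filter, and 0 were called with cage in the model, where 0.00613% of all genes were. Fabp2 was at 6.43, 3.81 and 0.590 CPM in colonic iHET and 2.50, 5.05 and 30.2 CPM in colonic iKO, a spread within each group that spanned the difference. The summed level of the 37 genes ran from 92.8 to 346 CPM in colonic iHET and from 71.7 to 463 CPM in iKO. The general epithelial list ran from 383 to 1442 CPM and from 271 to 2532 CPM in the same libraries. The colon libraries with the highest sum of that list in each genotype also had the highest sum of the 37 genes. Vil1 belongs to both sets, and a relation between the sums was not tested. The difference of the genotype effect between patches and colon was tested as an interaction over the 10 libraries of the line. By the quasi-likelihood test 0 of 18626 genes passed, with 622 (3.34%) at an unadjusted p under 0.05 and a lowest FDR of 0.99992, while the likelihood ratio test and DESeq2 called 2 each, among them Gstm1 by both. By the quasi-likelihood test no gene is therefore called particular to the CD25- PP Tregs.

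**Figure D4:**
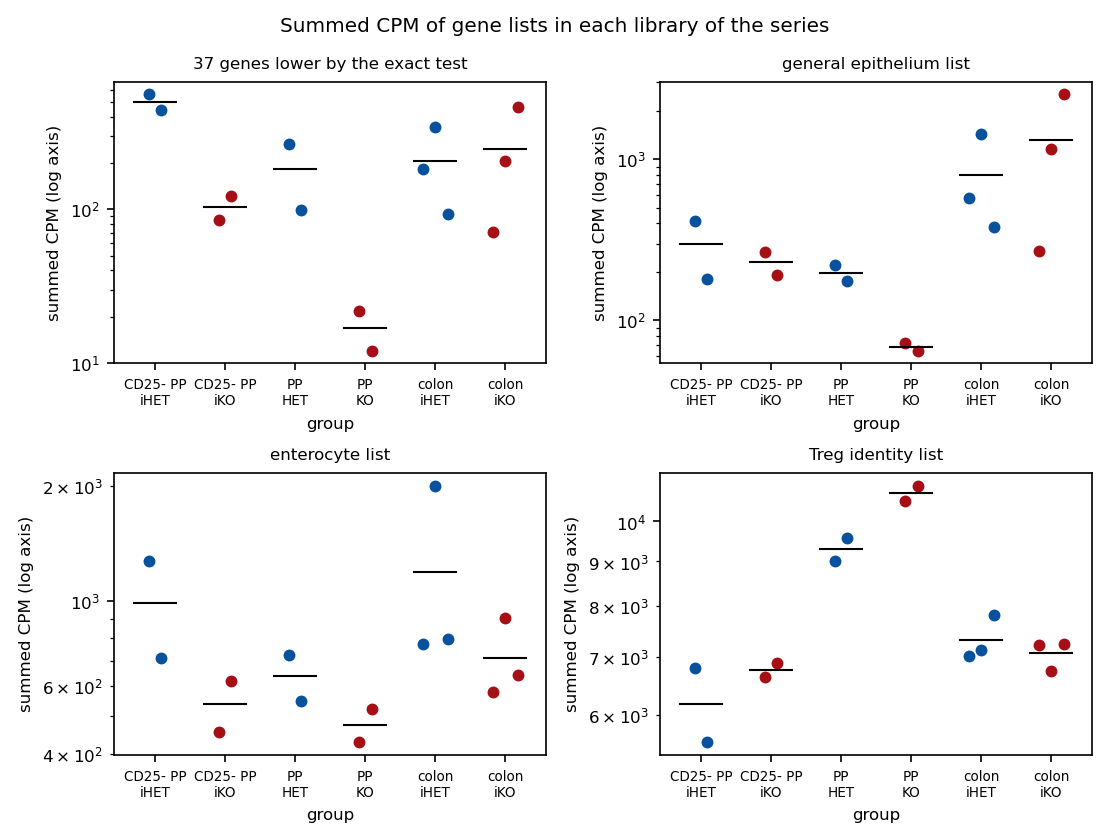
Summed CPM on log axes of the 37 genes that fell, the general epithelium, enterocyte and Treg identity lists, with 1 point per library (blue for control, red for JunB loss) and a bar at the mean of each group. The 37 genes run from 446 to 563 CPM in CD25- PP iHET and from 85.7 to 121 CPM in iKO, while the general epithelial sums of these groups overlap. The 37 genes share Vil1 with the general epithelium list and 8 genes with the enterocyte list.

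**Figure D5:**
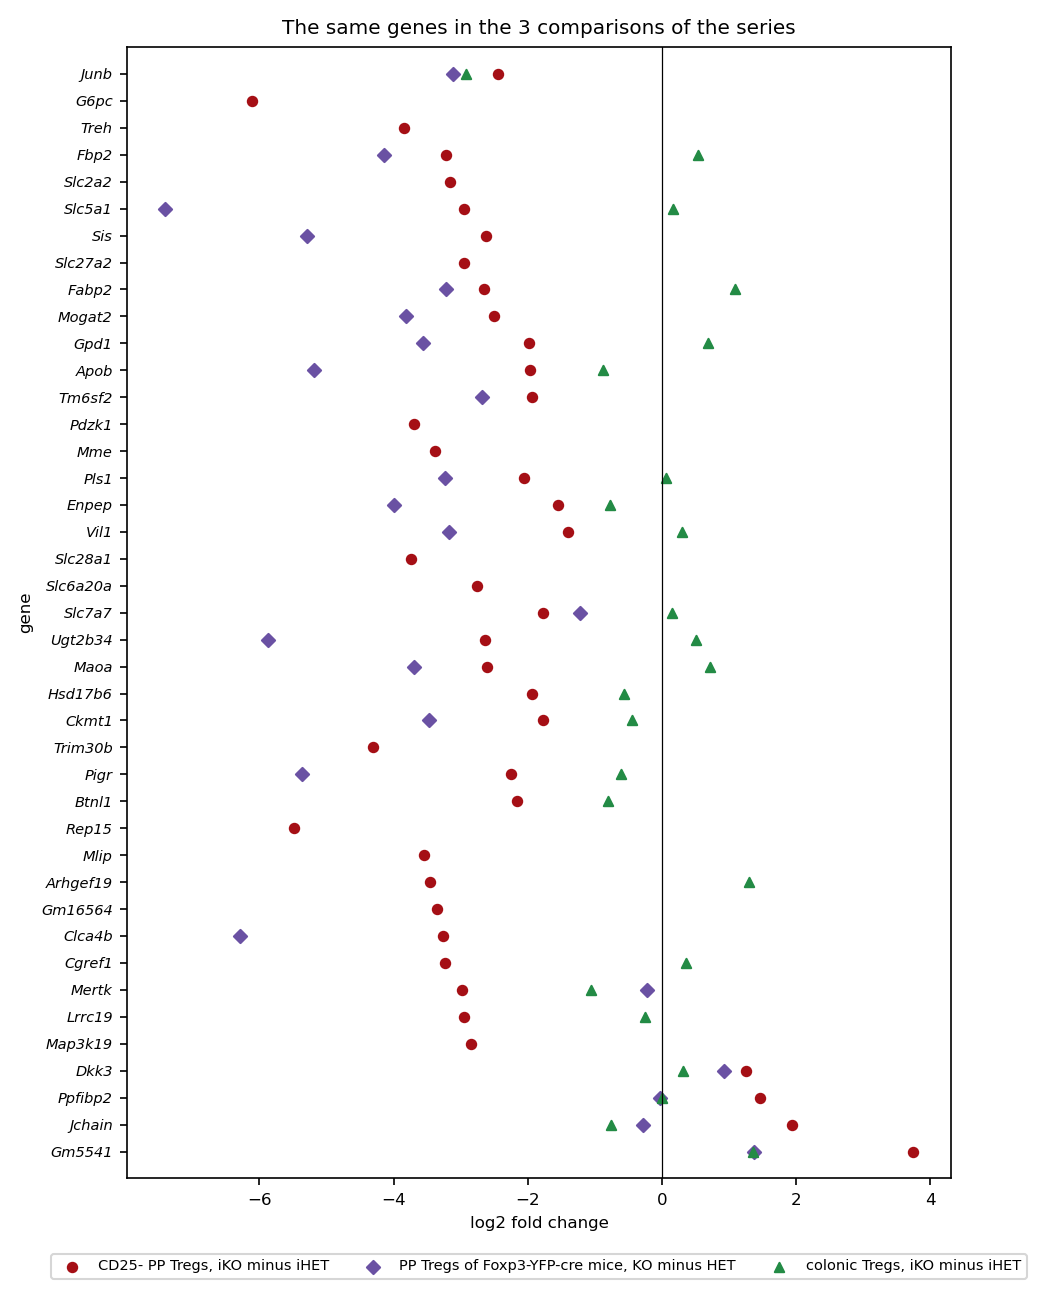
Log2 fold change of Junb and the other genes called and reported in CD25- PP Tregs (circles), beside the same gene in PP Tregs of Foxp3-YFP-cre mice (diamonds) and in colonic Tregs of the inducible line (triangles), where it passed the filter. Diamonds of the genes that fell lie left of 0, and triangles lie on both sides. A gene can pass the filter in Foxp3-YFP-cre mice through the HET libraries alone, so the side of the diamonds tests nothing.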

How the data were processed

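RNA was amplified with a template-switching kit and sequenced on a NovaSeq, and the reverse reads, which often held adapter, were left out by the authors. Per the labels and the study's methods, the authors trimmed reads with Trim Galore, aligned them with STAR to the mouse genome (GRCm38, mm10), kept unique reads, and counted them per gene with featureCounts without strand; the deposited values are raw counts per gene.

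Genes were kept at 1 CPM or more in 2 or more libraries, TMM factors computed and edgeR (4.0.16) run in R 4.3.3. The quasi-likelihood test was the main test, and the exact test, which the study used, was reported as a second call rule, both with Benjamini-Hochberg adjustment at 0.05. DESeq2 1.42.0, a likelihood ratio test, other scalings and filters, and leaving out each library were alternatives. Fold changes used a prior count of 1. Floors (3 counts) cover counting error only, since reads carry no molecular identifiers. Each ± value is the SE of the quasi-likelihood fit and includes the fitted spread between libraries. P-values measure the spread between the libraries given, and nothing says that it is free of technical spread. The edgeR and DESeq2 tests of iKO against iHET and the edgeR tests of the interaction were run on simulated counts. The other steps were not.

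Named genes were those the exact test called, those with the largest fold changes or lowest p, the members of fixed lists and the genes named by the study. The members and lists were chosen with earlier results of these data known. Exon overlaps came from GENCODE M21, while the study counted on M22. Some genes are not reported here, though counts over all genes include them. TPM were computed from counts and exon lengths.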

Additional observations from a re-analysis of the deposited data

Results flagged for a closer look

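For 8 genes every iKO library lay on one side of every iHET library in CD25- PP Tregs and on the opposite side in colonic Tregs, out of 453 genes considered and with at least 10 counts in every patch library. In the patches alone, 16% of all genes tested did not overlap with iKO higher and 16.2% with iKO lower. The share of all genes with opposite order in the colon was not computed, so the count itself is not read as a result. Values are the difference of the log2 fold changes, patches minus colon. By edgeR's quasi-likelihood test the interaction had an FDR of 0.99992 for each of them. Groups of 2 and 3 libraries were too small for a check of single outlying samples.

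Genes higher in iKO in the patches and lower in the colon were 7. The difference was 1.90 for Sostdc1, which was at 163 and 163 CPM in patch iHET and 180 and 193 CPM in patch iKO and 0 to 5.45 CPM in the colon. It was 1.26 for the protease Adam8, at 43.6 and 46.9 CPM in iHET and 48.4 and 95.3 CPM in iKO of the patches, and 1.29 for the antiviral gene Rsad2. It was 1.02 for Havcr2, the receptor TIM-3, 0.78 for Ccr9, 0.67 for Bcl2l1 and 0.39 for the hexokinase Hk1. One gene ran the other way: for Mttp, which loads lipid onto Apob, the difference was -2.11, with 110 and 35.5 CPM in iHET and 11.0 and 33.6 CPM in iKO of the patches and 4.03 to 6.79 CPM in all colonic libraries.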

How the results depend on the processing

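The count of called genes depended on the test, the filter and single libraries. Against 0 by the quasi-likelihood test, the exact test called 43, DESeq2 35 and the likelihood ratio test 50. Without a filter on low counts the quasi-likelihood test called 232 (83 higher and 149 lower), with at least 10 counts in every library 1 (Junb), and with the 10 libraries of the inducible line fitted together 1 (Junb). With each library left out in turn it called between 0 and 73, the most without iHET1, and the exact test between 44 and 178; the lone library of a group was then assumed to vary like the other group. Under DESeq2 size factors, upper quartile scaling, a smaller prior count and the newer and robust quasi-dispersions, the last 2 chosen after seeing the data, the quasi-likelihood count was 0.

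The log2 fold change of Junb was -2.44 by the exact test, DESeq2, the likelihood ratio test and with at least 10 counts in every library, and -2.43 without a filter and with the 10 libraries together, and lay between -2.63 and -2.22 with each library left out. It passed the threshold in each of these except without iKO1 or iKO2. For the interaction of organ and genotype the likelihood ratio test and DESeq2 each called 2 genes against 0.

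With 1 library left out, some named values changed sign: the log2 fold change of Tox2 ran from -0.39 to 0.018, and of Ccr1 from -1.13 to 0.68, each upper value without iHET1, and of Gzma from -0.014 to 0.42 and of Gzmb from -0.11 to 0.34, each lower value without iHET2. The cause was not tested. Medians of several lists also changed sign, among them those of the interferon-stimulated, general epithelial and Treg identity lists. Replicate numbers coincide with sex and cre-ERT2 allele number, and same-numbered libraries deviated together with r = 0.101 over all genes and 0.0274 without chromosomes X and Y. With 2 pairs they were not treated as paired. With the replicate block the quasi-likelihood count was 0, and Junb did not pass (FDR 0.446). Under the likelihood ratio test with the block 58 genes were called, and of the 43 exact test calls Gm5541 (FDR 0.210), Enpep (0.0591), Ugt2b34 (0.0759), Hsd17b6 (0.0681) and Slc7a7 (0.0573) were lost. With 2 libraries a group, genes near the floor are read from few counts.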
